A study of Mus musculus with 52 samples.

Results

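The Krüppel-like factors (KLF) other than Klf1 were described in single cells from mouse bone marrow. The 10 genes Klf2, Klf3, Klf4, Klf6, Klf7, Klf9, Klf10, Klf12, Klf13 and Klf16 were found by their symbols among 28786 gene identifiers, and each matched 1 identifier. Every library is 1 cell made with Smart-seq2, a plate method that copies full-length transcripts and adds no molecular identifier. The 52 cells share 1 label, primed HSC (haematopoietic stem cell), and came from C57BL/6 mice aged 6 to 8 weeks. Their genotype is Cd4-cre;R26Tdtomato, so that Cre made under Cd4 control turns on tdTomato in the cells and in their progeny, and every cell shares it. Neither the gate used for sorting, nor how many mice were used, nor what "primed" stands for is given in the sources used here. With 1 group and no named animal the data are 1 sample, so the values below describe these cells and no difference was tested. An SD is the spread over cells.

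KLF proteins bind GC-rich and CACCC-type DNA through a shared zinc finger domain at the C-terminus and differ in the N-terminal part that recruits partners. Klf2, Klf4, Klf6 and Klf7 are mainly activators, Klf3 and Klf12 recruit the corepressor CtBP, and Klf9, Klf10, Klf13 and Klf16 can recruit the Sin3 corepressor complex. Klf1, the erythroid member, activates globin, membrane and haem genes and also transcribes Klf3, whose product can occupy the same sites and repress them.

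The promoters of 4 members on which the results below turn show the letters that this family itself can bind. RefSeq promoter windows (build GRCm38.p6, from 250 bases before to 50 after the start) were held for 8 of the 10 genes, Klf10 and Klf16 being unmatched. Only bases outside the annotated gene are printed, 5′ to 3′ on the gene's strand, and capitals mark GC boxes (GGGCGG or its complement CCGCCC) and CACCC boxes (CCACCC or its complement GGGTGG), which can overlap. The stretches are chr13:5861239-5861481 on the plus strand for Klf6, chr7:63938916-63939165 on the minus strand for Klf13, chr8:72318812-72319032 on the plus strand for Klf2 and chr5:64803271-64803387 on the plus strand for Klf3.
Klf6: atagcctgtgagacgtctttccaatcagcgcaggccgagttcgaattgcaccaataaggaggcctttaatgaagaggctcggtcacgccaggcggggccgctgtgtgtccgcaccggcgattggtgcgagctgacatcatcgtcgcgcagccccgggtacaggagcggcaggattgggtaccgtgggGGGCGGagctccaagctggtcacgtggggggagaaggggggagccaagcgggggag
Klf13: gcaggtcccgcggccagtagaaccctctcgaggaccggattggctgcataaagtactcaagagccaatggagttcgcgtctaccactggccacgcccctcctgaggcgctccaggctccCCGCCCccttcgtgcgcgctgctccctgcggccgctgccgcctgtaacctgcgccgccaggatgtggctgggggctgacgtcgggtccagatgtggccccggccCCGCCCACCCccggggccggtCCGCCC
Klf2: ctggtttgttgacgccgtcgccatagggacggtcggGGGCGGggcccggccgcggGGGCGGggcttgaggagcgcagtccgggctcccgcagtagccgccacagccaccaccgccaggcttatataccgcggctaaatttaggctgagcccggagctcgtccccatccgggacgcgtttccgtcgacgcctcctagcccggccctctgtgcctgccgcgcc
Klf3: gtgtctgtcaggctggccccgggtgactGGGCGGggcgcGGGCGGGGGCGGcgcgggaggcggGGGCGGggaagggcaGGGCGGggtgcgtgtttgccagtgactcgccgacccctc
Klf3 held 5 GC boxes in 117 bases, Klf13 held 3 with 1 CACCC box, Klf2 held 2 and Klf6 held 1. Over the whole windows, searched on both strands, a GC box was present in 35.7% of 32851 promoters and a CACCC box in 31.5%. Of the 8 matched members, Klf2, Klf3, Klf4, Klf6, Klf7 and Klf13 held a GC box and Klf2, Klf3, Klf7 and Klf13 a CACCC box. The Klf6 window held 4 CCAAT letters (37.4% of promoters held at least 1) and 1 E-box (CACGTG, 7.15%). The AP-1 letters TGANTCA (7.81% of promoters) were found in Klf9 alone among the matched members, and the GATA letters AGATAA (11.2%) and the serum response element (SRE, 1.63%) in none. These are matches of letters and say nothing of binding.

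Of the 52 cells, 49 were kept, with 85519 to 12446477 reads each (median 2187579). By the level of Klf1 in CPM, the count divided by the total of its cell and put on a common scale (counts of each gene rounded first), 36 cells lay at 100 CPM or more and are called Klf1-high, and 13 lay below and are called Klf1-low. The highest value below that limit was 82.2 CPM and the lowest above was 141 CPM. Cd34, a surface gene of stem and early progenitor cells, reached 10 CPM in 14 cells, called Cd34-positive, of which 11 were Klf1-low and 3 Klf1-high, and no cell lay between 1.66 and 91.0 CPM. The classes carried different marker genes and depth. The summed level of 14 stem and progenitor genes, Cd34 among them, had a median of 3789 CPM in the Klf1-low cells other than cells 9 and 34. In Klf1-high cells it was 827 CPM. For 14 erythroid genes the medians were 1566 CPM in the same Klf1-low cells and 14497 CPM in Klf1-high cells. The erythroid list holds Klf1 itself (mean 18.8 CPM in all Klf1-low and 853 CPM in Klf1-high cells), so part of this gap was fixed by the limit. The stem cell markers Procr, Slamf1 and Ly6a did not pass the filter on low values, and the low stem cell sum of the Klf1-high cells goes against the label for them. Klf1-low cells were shallower, with a median of 752926 reads against 2993788, and their summed level of 12 mitosis genes was lower (median 193 CPM without cells 9 and 34, against 2504). Cell 34 stood apart with 52326 CPM of 13 neutrophil and monocyte genes, of which 8 had a read and Mpo, Elane, Ctsg, S100a8 and Ly6c2 were at 0. The highest such sum among the other 48 cells was 3021 CPM. Cell 9, the shallowest kept cell, carried 7811 CPM of 8 B cell genes but also 9518 CPM of the erythroid genes. It had 11.7 CPM of the stem and progenitor genes and no read of Klf6. For the members, class ratios that rest on cell 34 are given with and without it, while values of the target and partner lists include it.

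Per kilobase of exon, which allows genes to be compared, the members were far below Klf1 (413 CPM per kb) on average over the 49 cells. Klf2 (24.9), Klf6 (23.6), Klf13 (17.2) and Klf10 (15.3) had the highest mean levels in CPM per kb. They were followed by Klf4 (9.28), Klf16 (8.33), Klf3 (4.92), Klf9 (4.59), Klf7 (0.681) and Klf12 (0). These means do not describe a typical cell, because 1 cell set several of them. Cell 34 held 92.5% of the summed CPM of Klf2, 99.1% of Klf4, 25.2% of Klf6 and 24.5% of Klf10, against 7.27% of Klf13. By the number of cells with a read the order was different, with Klf13 in 49 cells, Klf10 in 35, Klf3 in 34, Klf9 in 32, Klf6 and Klf16 in 30, Klf2 in 12, Klf7 in 9, Klf4 in 4 and Klf12 in 0. A cell held a read of 5 of the 10 members at the median (range 1 to 8), with a median of 5 in Klf1-high and 4 in Klf1-low cells. Of the members, 7 passed the filter used for all genes (5 CPM or more on average, with reads in 10 cells or more), and Klf4, Klf7 and Klf12 did not.

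**Figure D1:**
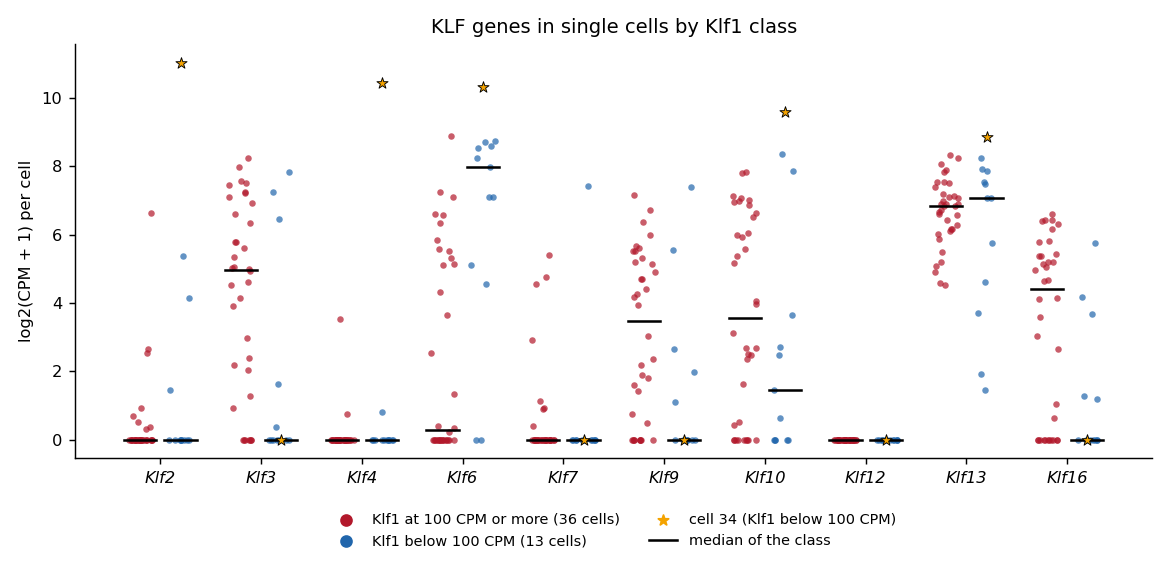
Level of the 10 KLF genes in 49 cells as log2(CPM + 1), 1 point per cell, split into 36 Klf1-high (red) and 13 Klf1-low (blue) cells, with a star for cell 34 and a bar at each class median. Klf6 is the gene whose median is far higher in Klf1-low cells, Klf13 is present in every cell, and cell 34 lies above all others for Klf2, Klf4, Klf6, Klf10 and Klf13.

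Among the activators, Klf6 differed most between the classes by the ratio of means once cell 34 was set aside, and it was higher in cells with little Klf1. Klf6, an early response gene that can induce the cell cycle inhibitor Cdkn1a, lies on chromosome 13 (5861482 to 5870394, plus strand, GRCm38). In Klf1-low cells it ran from 0 through a median of 249 to 1279 CPM, the highest being cell 34 and the next cell 31 at 425 CPM. In Klf1-high cells it ran from 0 through a median of 0.219 to 474 CPM, the highest being cell 15. Both classes thus held cells at 0 and cells above the other's median, but 11 of 13 Klf1-low cells reached 10 CPM against 14 of 36 Klf1-high cells. The mean was 289 ± 339 CPM in Klf1-low and 36.7 ± 85.1 CPM in Klf1-high cells (SD, n = 13 and 36 cells). It was therefore 7.87 times lower in Klf1-high cells, and 5.62 times lower when cell 34 was left out.

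Klf6 was also higher with Cd34. It had a read in 13 of 14 Cd34-positive cells (92.9%, exact 95% interval 66.1 to 99.8) and in 17 of 35 Cd34-negative cells (48.6%, 31.4 to 66.0). These intervals cover the error of counting cells only. Cd34-positive cells ran from 0 through a median of 144 to 425 CPM, and Cd34-negative cells from 0 through 0 to 1279 CPM. The ratio of means was 2.78, and 5.79 without cell 34, which is Cd34-negative. Scaled by DESeq2 size factors, the log2 ratio over all 49 cells was 0.80, below the 2 times (1 on the log2 scale) used here for a call. In the 3 cells that were both Cd34-positive and Klf1-high, Klf6 was at 4.79 CPM in cell 47, 44.5 CPM in cell 2 and 151 CPM in cell 21. These 3 lie within the range of the 33 other Klf1-high cells, whose median was 0 CPM. Within the Klf1-low cells, 10 of the 11 Cd34-positive cells reached 10 CPM. The 11th, cell 16, had 0 reads of Klf6 in 584216.

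Klf2 and Klf4 were near absent outside cell 34. Klf2, which holds lymphocytes in quiescence and activates the trafficking receptor gene S1pr1, had 1258 reads in cell 34 (2084 CPM), and the next cell, cell 38, had 97.2 CPM. The other cells at 10 CPM or more were cell 31 at 40.1 CPM and cell 33 at 16.7 CPM. In 37 of the 49 cells Klf2 had no read. Its mean was 54.1 times lower in Klf1-high than in Klf1-low cells with cell 34, and 1.60 times lower without it. Klf4, a regulator of monocyte differentiation and of pluripotency, had 830 reads in cell 34 (1375 CPM) and 33 reads in cell 35 (10.6 CPM). Of the other 47 cells, cells 4 and 41 had a level under 1 CPM and the rest had no read. Cell 34 is also the cell with the highest Fos (7194 CPM) and the highest neutrophil and monocyte gene sum, and the part of either in its Klf2 and Klf4 was not tested. Klf7, an activator best known from neurons, was at 172 CPM in cell 33, 41.4 CPM in cell 21, 26.3 CPM in cell 37 and lower in every other cell. Cell 33 thus held 63.2% of its summed CPM, and the 2 highest cells were Cd34-positive.

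Of the repressors that bind CtBP, Klf3 was read in 34 of the 49 cells and Klf12 in 0. Klf3, on chromosome 5 (64803388 to 64832901, plus strand), was at 0 through a median of 30.4 to 300 CPM in Klf1-high cells, the last value in cell 30. In Klf1-low cells the median was 0 and the range reached 229 CPM in cell 7. It reached 10 CPM in 23 of 36 Klf1-high and in 3 of 13 Klf1-low cells, and the ranges overlap. The mean was 62.3 ± 79.4 against 36.1 ± 74.1 CPM (SD), a ratio of 1.72 that is below the 2 used here for a call. The 3 Klf1-low cells at 10 CPM, which are cells 7, 20 and 33, were all Cd34-positive and had Klf1 at 80.1, 28.1 and 2.56 CPM. In the 3 cells with no read of Klf1, Klf3 had 1 read in cell 26 (2.09 CPM) and 0 in cells 27 and 41. Klf3 overlaps the annotated genes Gm20033 on the other strand and C230096K16Rik on its own, and its reads could include theirs. Klf12 had 0 reads in all 49 cells, which leaves room for reads in up to 6.12% of such cells, and none in the 3 cells left out.

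Klf13 was the member found in every cell. Klf13, an activator of Ccl5 in T cells that is also able to act on globin promoters, lies on chromosome 7 (63886351 to 63938915, minus strand). It ran from 22.1 through a median of 113 to 320 CPM in Klf1-high cells and from 1.71 through 134 to 462 CPM in Klf1-low cells. All 36 Klf1-high cells reached 10 CPM, as did 11 of 13 Klf1-low cells. The mean was 122 ± 75.9 against 151 ± 137 CPM (SD), 1.23 times lower in Klf1-high cells and 1.02 times lower without cell 34. The coefficient of variation over cells was 0.734, the lowest of the 9 members with a read, for which the others ran from 1.29 to 6.94. The exceptions were Klf1-low cells: cell 16 had 1 read (1.71 CPM) and cell 51 had 10 reads (2.81 CPM), while cell 41 had 16 reads (12.01 CPM). Cell 51 was not shallow, with 3560609 reads. Klf13 overlaps the annotated genes Gm27252 and E030018B13Rik on the other strand, and whether the counting used strand is not given in the sources used here.

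Klf16 was the member whose mean was at least 2 times higher in Klf1-high cells, while Klf3 and Klf9 were higher there by less. Klf16, on chromosome 10 (80567124 to 80577321, minus strand), is a GC-box binding factor described as a repressor. In Klf1-high cells it ran from 0 through a median of 20.3 to 96.9 CPM, the last value in cell 48, and 21 of 36 cells reached 10 CPM. In Klf1-low cells the median was 0 and the 3 cells at 10 CPM were cell 27 at 53.1, cell 20 at 17.2 and cell 7 at 11.8 CPM. The mean was 27.96 ± 30.5 against 6.52 ± 15.02 CPM (SD), 4.29 times higher in Klf1-high cells and 3.96 times higher without cell 34. At the same time 11 Klf1-high cells had no read of it, so the classes overlap at 0. In Cd34-positive cells its mean was 11.5 ± 18.2 CPM against 26.6 ± 31.2 CPM (SD) in Cd34-negative cells. Within Klf1-high cells it was 25.5 ± 21.8 CPM in the 3 Cd34-positive and 28.2 ± 31.4 CPM (SD) in the 33 Cd34-negative cells, so the Cd34 and Klf1 splits are not separate.

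Klf9 and Klf10 were found in about as many cells as Klf3, with low medians. Klf9, a glucocorticoid-induced factor, was at a median of 10.7 CPM in Klf1-high cells, with 18 of 36 at 10 CPM and a highest value of 143 CPM. In Klf1-low cells its median was 0 and 2 of 13 reached 10 CPM, one of which, cell 51, had the highest level of all at 167 CPM. The ratio of means was 1.396. Klf10, induced early by TGF-β, had a median of 11.2 CPM in Klf1-high cells and 1.72 CPM in Klf1-low cells, with 18 of 36 and 4 of 13 at 10 CPM. Its mean nevertheless lay 2.10 times lower in Klf1-high cells (49.4 ± 64.7 against 104 ± 225 CPM, SD). Without cell 34, which had 765 CPM, the means were level at a ratio of 1.02, so that 1 cell decided this value.

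**Figure D2:**
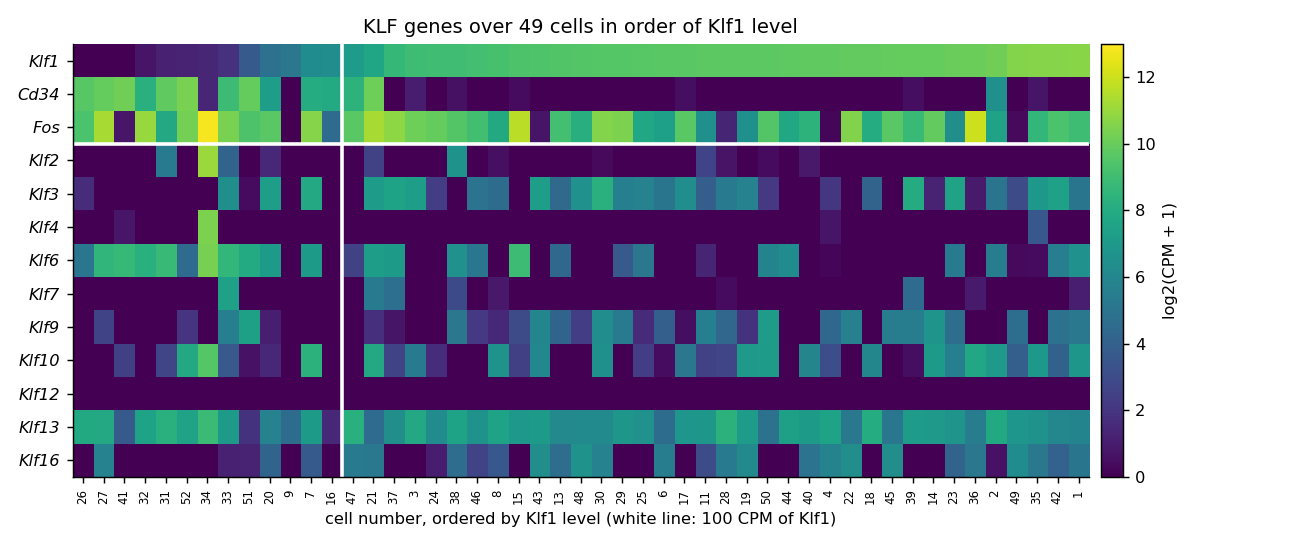
Levels as log2(CPM + 1), shown by colour, of Klf1, Cd34, Fos and the 10 KLF genes (rows) in 49 cells (columns) ordered from the lowest to the highest Klf1, with a vertical white line at 100 CPM of Klf1. The Klf6 row is bright in 11 of the 13 cells left of the line, the Klf12 row is empty, and Klf2 and Klf4 are bright in the column of cell 34.

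Counted by the ratio of means, 1 of the 7 genes past the filter was at least 2 times higher in Klf1-high cells (Klf16), beside 26.1% of the 9157 genes past it, and 3 were at least 2 times lower (Klf2, Klf6 and Klf10), beside 20%. Without cell 34 the counts were 1 (Klf16, beside 25.1%) and 1 (Klf6, beside 20.1%). In Cd34-positive against Cd34-negative cells, 1 was at least 2 times higher (Klf6, beside 20.2%) and 2 lower (Klf2 and Klf16, beside 19.2%). Without cell 34 these were Klf6 (beside 20.4%) and Klf16 (beside 19.3%). The KLF counts without cell 34 are thus near the share of all genes, and the median log2 ratio of Klf1-high over Klf1-low cells was 0.03 for the KLF genes and 0.12 for all genes.

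Which members followed Klf1 was read from the Spearman rank correlation of CPM over the 49 cells, with 0.4 as the minimum to call a gene following. None of the 7 members rose with Klf1, beside 12.1% of all genes, and 1 fell, Klf6 at -0.45, beside 2.04%. Klf16 (0.32), Klf9 (0.31), Klf3 (0.27) and Klf10 (0.27) lay below the minimum, and Klf13 (-0.14) and Klf2 (-0.23) had negative values. The count of 0 rising depended on the setting, since Klf10 reached 0.41 in the 36 cells with at least 1000000 reads and Klf3 reached 0.41 by Pearson correlation of log2 values. The median of the 7 was 0.27, and that of all genes 0.17. A pooled value spans both classes, and within the 36 Klf1-high cells 0 members reached 0.4 (beside 1.65%) or -0.4 (beside 0.797%). Klf10 was the highest there at 0.33, while Klf6 was at -0.09 and Klf16 at 0.10. Within the 13 Klf1-low cells Klf6 (-0.49) and Klf13 (-0.54) were at most -0.4, beside 9.84% of 9053 genes, and 0 rose (beside 7.06%). Without cell 34 these were -0.57 and -0.58.

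Depth moved with Klf1, whose correlation with total reads was 0.52, and also with some members. The correlation with total reads was 0.40 for Klf9, 0.34 for Klf10, 0.29 for Klf3 and 0.28 for Klf16, against -0.10 for Klf6 and -0.07 for Klf13. With total reads held in a partial rank correlation, that of Klf6 with Klf1 was -0.47, that of Klf16 was 0.21, that of Klf3 was 0.15 and that of Klf9 was 0.13. By the same measure Klf10 was at 0.11, Klf13 at -0.12 and Klf2 at -0.35. Within Klf1-low cells Klf6 had a correlation of 0.54 with total reads (0.68 without cell 34), against 0.10 within Klf1-high cells. The part of depth in the pooled values, and in those of Klf6 within the classes, was not tested. Over the 49 cells Cd34 gave the converse picture for Klf6, with a correlation of 0.56 (1 of 7 members at 0.4 or more, beside 3.64%). None fell with Cd34 (beside 8.81%), the lowest being Klf9 at -0.32. Cd34 itself was at -0.67 with Klf1, so the pooled values are not separate. Within Klf1-high cells Klf6 was at 0.24 with Cd34, and within Klf1-low cells at 0.21, both below the minimum. Without cell 34 the value within Klf1-low cells was 0.46.

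None of the 7 members past the filter followed Fos, the immediate early gene whose product forms AP-1 with Jun. Over the 49 cells 0 of 7 reached 0.4 with Fos, beside 0.546% of all genes, and 0 reached -0.4, beside 1.41%. Klf6 was the highest at 0.32, followed by Klf10 at 0.11 and Klf2 at 0.10, and Klf16 was the lowest at -0.13. Within Klf1-high cells 0 reached 0.4 (beside 1.05%) or -0.4 (beside 4.32%), and Klf13 came nearest at -0.38. Within Klf1-low cells Klf13 (0.56) and Klf16 (0.41) reached 0.4, beside 9.09%, and 0 reached -0.4, beside 4.57%. Without cell 34 they were at 0.44 and 0.59. The sign for Klf13 and Klf16 thus differed between the classes, over 13 cells in the smaller one, and that difference was not tested. For Klf16 the value there rests on 5 cells with a read, the other 8 being tied at 0. Fos itself was at a median of 803 CPM in Klf1-low cells and 520 CPM in Klf1-high cells, and its correlation with Klf1 was -0.28.

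**Figure D3:**
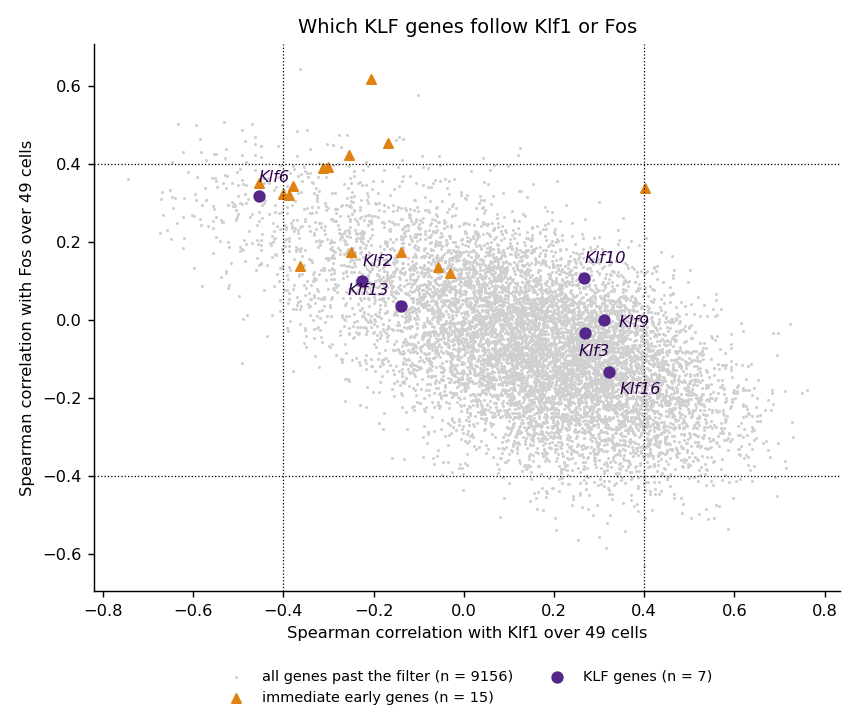
Spearman correlation with Klf1 (x axis) against that with Fos (y axis) over 49 cells for every gene past the filter (grey), the 7 KLF genes past it (purple) and 15 immediate early genes (orange), with dotted lines at 0.4 and -0.4. Klf6, at -0.45 and 0.32, lies among the immediate early genes at the upper left, while Klf3, Klf9, Klf10 and Klf16 lie right of the centre between the lines.

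Klf6 lay close to other immediate early genes although not to Fos at the minimum used. Of the 16 immediate early genes past the filter, 5 reached 0.4 with Klf6: Nr4a1 (0.65), Zfp36 (0.54), Junb (0.53), Ier2 (0.50) and Egr1 (0.48), beside 2.11% of all genes. Within Klf1-high cells 2 of the 16 did, Junb (0.50) and Egr1 (0.41), beside 1.83%, while Nr4a1 was at 0.31 and Ier2 at 0.10. For the other 6 members the count over all kept cells was 0 of 16. Fos reached 0.4 with 3 of the 15 others (Junb, Jund and Dusp1). The summed CPM of the immediate early list without Fos, a measure chosen after the values were seen, had a correlation of 0.61 with Klf6 (beside 3.28% of 9143 genes at 0.4 or more), and of -0.52 with Klf1. It was 0.36 within Klf1-high cells, where 0 members reached 0.4 (beside 1.95%), and 0.50 within Klf1-low cells. Without cell 34 it was 0.58 over the other 48 cells and 0.36 within Klf1-low cells, which is below the minimum. The within-class values are smaller than the pooled one, and the early sum itself was higher in Klf1-low cells. Including Fos, that sum had a median of 8389 CPM in Klf1-low cells other than cells 9 and 34 against 3119 CPM in Klf1-high cells. No member fell with that sum to -0.4 (beside 10.7%), and Klf3 was the lowest at -0.39. Immediate early genes can respond to tissue handling and sorting, and the part of handling in the Klf6 values was not tested. The summed heat shock genes had a correlation of 0.05 with Klf6. Of the 7 genes in that sum, Hspa1a, Hspa1b and Hspb1 did not pass the filter. Of the 4 that did, Hspa5 had the highest mean (476 CPM), so the value was not read as a measure of handling.

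**Figure D4:**
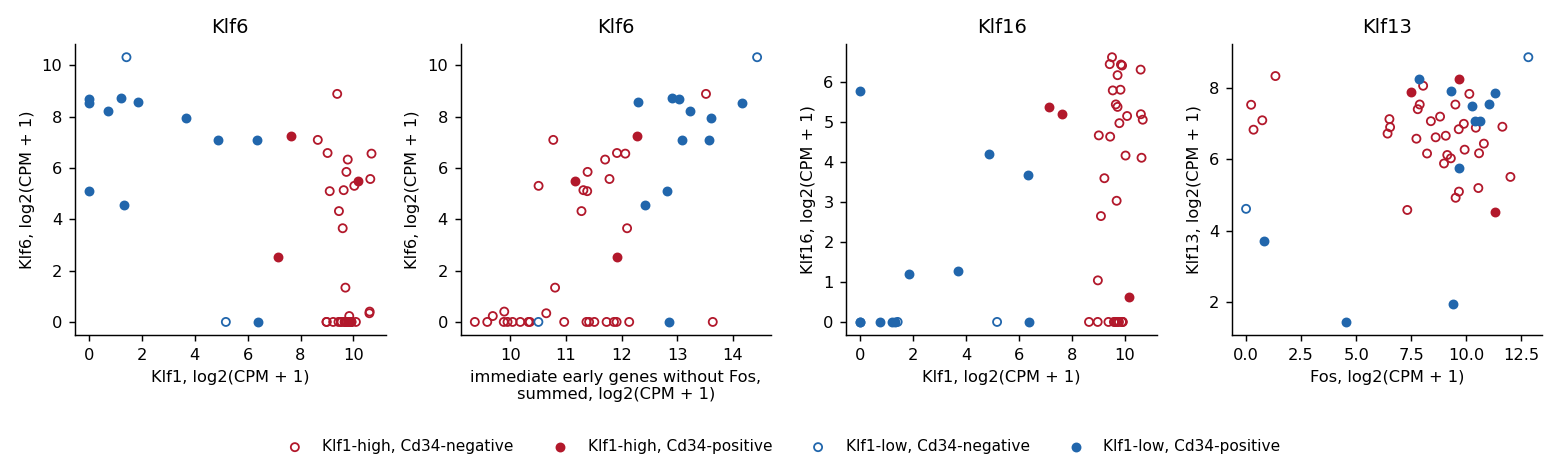
Levels as log2(CPM + 1), 1 point per cell (49 cells), of Klf6 against Klf1, Klf6 against the summed immediate early genes without Fos, Klf16 against Klf1 and Klf13 against Fos, with red for Klf1-high, blue for Klf1-low and filled points for Cd34-positive cells. Klf6 rises with the early sum (0.61) and is at 0 or near it in many Klf1-high cells, and Klf16 is at 0 in cells of both classes.

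Klf3 moved with genes of dividing cells. Its correlation with the summed CPM of 12 mitosis genes, also chosen after values were seen, was 0.48, beside 6.25% of 9146 genes at 0.4 or more, and 0.44 within Klf1-high cells (beside 2.41%). It fell short of 0.4 with all 52 cells (0.34) and with cells thinned to the shallowest (0.36). Klf6 was at -0.40 (beside 1.68% at -0.4 or below), 0.03 within Klf1-high cells, -0.65 within Klf1-low cells (also -0.65 there without cell 34) and -0.37 over all cells but cell 34, and in 8 of 10 alternatives it did not reach -0.4. Klf1 itself was at 0.54 with the mitosis sum. Klf3 also moved with the mitochondrial share of reads, at 0.50 over all kept cells and 0.37 within Klf1-high cells. Within the 13 Klf1-low cells, of which 5 had a read of Klf3, the value was 0.81, and it was also 0.81 without cell 34. The part of cell division or RNA quality in the level of Klf3 was not tested.

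The members did not move together. Of the 36 pairs among the 9 members with a read, 0 reached 0.4 and 0 reached -0.4, with a median correlation of 0.05. The highest pair was Klf2 with Klf7 at 0.35, which shared 5 cells with a read, and the lowest was Klf6 with Klf16 at -0.30.

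Lists of known targets and partners were set beside the members. Of 23 Klf1 target genes analysed, a list that includes Klf3, 16 passed the filter. Of these, 8 rose with Klf1 (beside 12.1% of all genes) while 1 fell (beside 2.04%), which was Nfe2. The highest were the water channel gene Aqp1 (0.76), the blood group gene Ermap (0.73) and the translocator gene Tspo2 (0.65). Klf3 (0.27) lay between the limits, as did E2f4 (0.38), Epb42 (0.35), Sptb (0.32), E2f2 (0.31), Icam4 (0.27) and Bcl11a (0.04). Of the 16 other KLF and SP genes, Klf1 among them, 6 passed, and of the 5 apart from Klf1 the GC-box factor Sp3 (0.42) rose with it. Klf11, a relative of Klf10, was at 0.25 and Sp1 at 0.12. Of the 12 KLF cofactor genes, 12 passed, 0 rose with Klf1 and Fhl3, a LIM protein, fell (-0.43). The corepressor genes Ctbp1 (0.29, mean 229 CPM) and Sin3b (-0.08, mean 163 CPM) did not reach the minimum. Ctbp1 had a mean of 256 CPM in Klf1-high and 155 CPM in Klf1-low cells, and Sin3b of 152 and 194 CPM, so both corepressors were measured in both classes. Of the 12 cofactor genes, 4 had a mean at least 2 times lower in Klf1-high cells (beside 20% of all genes) and 0 at least 2 times higher (beside 26.1%), cell 34 included. The 4 were Ctbp2 (11.7 CPM in Klf1-high and 39.7 CPM in Klf1-low cells), Fhl3, Crebbp and Kat2b. Of 13 genes known as targets of Klf2, Klf4 or Klf6, 9 passed and 0 followed Klf1 or Fos. Of the 9, 5 had a mean at least 2 times lower in Klf1-high cells (beside 20% of all genes) and 0 at least 2 times higher (beside 26.1%). Cdkn1a, the Klf6 target named above, was among the 5, with 13.1 CPM in Klf1-high and 85.1 CPM in Klf1-low cells. So was S1pr1, with 10.6 and 58.9 CPM. They had a read in 11 and 17 of the 49 cells, and values without cell 34 are not given. Tgfbr1 went the other way (7.84 and 6.19 CPM). Each of these lists was chosen with earlier results of these data known.

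The genes most like each member over the 49 cells were taken among up to 6383 genes that averaged 20 CPM or more and were read in 50% of cells or more. For Klf6 they were Sh3bgrl3 (0.68), the MHC class I gene H2-K1 (0.67) and Nr4a1 (0.65), and each of these also fell with Klf1 (-0.53, -0.59 and -0.40). H2-K1 shares reads with near-identical class I genes, so its own level is uncertain. For Klf16 they were Smyd5 (0.61), the cytokinesis factor Ect2 (0.58) and Lsm11 (0.58). For Klf3 they were Rdx (0.60), Gm10221 (0.60) and Anapc1 (0.59), a subunit of the anaphase-promoting complex. For Klf9 they were Orc5 (0.57), of the origin recognition complex, Usp8 (0.56) and Fxr2 (0.55). For Klf10 they were Idi1 (0.54), Ndufv3 (0.54) and Bloc1s4 (0.51). For Klf2 they were Copg1 (0.50), Tsc22d3 (0.50), a glucocorticoid-induced gene, and Man2c1 (0.44). Klf13 had the lowest likeness of the 7, to Eif1 (0.47), Larp7 (0.46) and Zscan26 (0.44). Each is the highest of all the genes compared, and they are given as a description.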

How the data were processed

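The deposited table holds estimated counts for each gene in 52 cells, which the authors quantified with Salmon 0.03.1 on GRCm38 after trimming with Trim Galore 0.5.0, per the submitters' processing notes. Of its entries 4.23% are fractional. Neither the transcript set nor the strand setting is given in the sources used here. Counts were rounded and scaled to CPM by each cell's total. Cells needed at least 50000 reads, 1000 genes and at most 20% mitochondrial reads, which left out cells 5, 10 and 12. GENCODE M21 gave symbols for 96.3% of identifiers, coordinates and exon lengths. Correlations are Spearman's over cells, which share library preparation and differ in depth. They carry no p-value, since cells are not replicates. Intervals are exact (Clopper-Pearson, 95%), and the limit for a share of 0 takes 3 counts. Both treat the cells as independent draws, so they cover the error of counting cells only and no spread between animals. Reads copied by PCR and carrying no molecular identifier are not independent molecules.

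The members, the lists and the limits were chosen with earlier results of these data known. Named are the 10 members, Klf1, Fos and Cd34, examples from each list, and the 3 genes most like each member past the filter. Genes named outside that rule were chosen after their values were seen. Alternatives were scaling with edgeR 4.0.16 (TMM) and DESeq2 1.42.0 size factors, other cell filters, thinning to the shallowest cell, other limits, log2(CPM + 1) in place of CPM, and leaving out cells. Leaving out cell 34 and the partial correlation were added after seeing the data. The calculations (Python 3.11.15, scipy 1.17.1) were tested on simulated data. No doublet caller was run on 52 wells.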

Additional observations from a re-analysis of the deposited data

Results flagged for a closer look

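Reads of 4 members were seen in the cells left out for low depth, few genes or a high mitochondrial share, and for Klf13 and Klf3 they were more than 3. Klf13 had 52 reads in cell 5 (307220 reads in all), 7 reads in cell 10 and 22 reads in cell 12. Klf3 had 18 reads in cell 10, which held 39692 reads in all. Both members were also read in kept cells, Klf13 in 49 and Klf3 in 34. Cell 12 also had 2 reads of Klf6 and 1 read of Klf9.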

How the results depend on the processing

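Klf6 kept its negative correlation with Klf1 (-0.59 to -0.41), its positive one with the immediate early sum (0.55 to 0.66) and its lower mean in Klf1-high cells (log2 ratio -4.09 to -2.49) under every alternative run, and Klf16 kept its higher mean there (1.35 to 3.33). The number of members rising or falling with Klf1 was 1 (Klf6, falling), and became 2 in cells with at least 1000000 reads (Klf10 rising), 2 with Pearson correlation of log2 values (Klf3 rising), 3 at a minimum of 0.3 (Klf9 and Klf16 rising) and 0 at 0.5. The number following Fos was 0, and 1 at 0.3. The number higher in Klf1-high cells was 1, and 3 at 1000000 reads, 2 with thinned cells, 2 with a Klf1 limit of 50 CPM, 3 with differences of mean log2 and 2 at a ratio of 1.5. The number higher in Klf1-low cells was 3, and 1 without cells 9, 13, 23 and 34, 1 without cell 34, 1 at 1000000 reads, 1 with thinned cells and 5 with no filter on low genes. The number higher in Cd34-positive cells was 1, and 0 with DESeq2 size factors (Klf6 at a log2 ratio of 0.80), 2 with no filter and 3 where Cd34-positive meant at least 1 read. Klf10 reversed its log2 ratio between Klf1 classes, from -1.07 to 4.54 at 1000000 reads (5 Klf1-low cells), 0.82 by mean log2 and 0.027 without cell 34. Klf2 reversed its Cd34 ratio, from -3.79 to 8.61 with at least 1 read of Cd34, where cell 34 becomes positive, and 0.30 by mean log2. Other causes were not tested. Thinning lowered the share of cells with a read of Klf2 to 8.16% and of Klf3 to 44.9%, so absence in a shallow cell is not detectable at this depth. No paired analysis was possible because there is 1 group.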
